A study of Mus musculus with 9 samples.

Results

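Lung RNA-seq counts of 3 mouse samples labelled as knockdown of Hif-1α after hypoxia were set against those of 3 samples labelled hypoxia, so the comparison uses 6 of the 9 libraries of the study, chosen by their treatment labels. The 3 other libraries, labelled normoxia, are given beside them. All 3 knockdown and all 3 hypoxia samples had been exposed to hypoxia, per the labels, so the label adds the knockdown to an exposure that both groups share. The study asked, per its design text, how sustained hypoxia acts on the mouse lung and what lowering Hif-1α in such mice does. Neither the oxygen level nor the exposure time, the means and timing of the knockdown, the strain, age and sex of the mice, the hour of tissue collection and whether each sample is a separate animal is given in the sources used here. The p-values below thus measure only how these samples spread, which may in part be technical. The labels name no control treatment for the knockdown in the hypoxia or the normoxia group.

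HIF-1α is the oxygen-sensitive subunit of the transcription factor HIF-1. In normal oxygen, prolyl hydroxylases mark the protein for capture by the von Hippel-Lindau ubiquitin ligase and it is degraded, whereas in low oxygen it persists, pairs with ARNT and binds the core sequence ACGTG or GCGTG near genes for glycolysis, vessel growth and red cell production. Most of this control acts on the protein and not on the transcript, which is why the transcript of Hif1a and the transcripts of its targets are separate readouts. In the lung, HIF-2α, the product of Epas1, is abundant in endothelial and epithelial cells, and HIF-1α is also known for its part in the metabolism of macrophages, neutrophils and T cells.

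The deposited table holds whole-number counts, and library totals were 15566485 to 18046442 in the knockdown group and 17163661 to 17620652 in the hypoxia group, with a count of 3, taken as the floor of detection, worth 0.166 to 0.196 CPM. CPM here is the count of a gene scaled to a common library size, after TMM scaling for composition. The tissue field names lung while the titles carry the word muscle. Sftpc, of alveolar type 2 cells, stood at 12700 CPM or more in every library, whereas the highest levels of Acta1 and Myh4, of skeletal muscle, were 0.523 and 0.057 CPM. Cardiac muscle transcripts were uneven inside the groups, with summed levels of 819, 79.8 and 623 CPM in the knockdown libraries and 308, 1532 and 128 CPM in the hypoxia libraries. Hypoxia library 2 stood apart from the other two hypoxia libraries: its summed T and NK cell transcripts were 2287 CPM, against 4612 and 3862 CPM in hypoxia libraries 1 and 3. Values without it are given where a result rests on it. In bulk tissue, fewer cells of a type and less RNA per cell cannot be told apart. Adjusted p-values are those of edgeR's quasi-likelihood test over 17578 genes unless stated otherwise, and a gene is said to rise, fall or pass when that value is under 0.05.

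The transcript of the targeted gene was close to its hypoxia level in the libraries labelled knockdown. Hif1a (ENSMUSG00000021109, chr12:73901375-73947530 of GRCm38, plus strand) stood at 86.4, 85.5 and 85.03 CPM in the knockdown libraries, 93.4, 98.3 and 88.6 CPM in the hypoxia libraries and 80.3, 87.8 and 78.6 CPM in the normoxia libraries. The 3 knockdown libraries lay below all 3 hypoxia libraries, by a small margin, and within the range of the normoxia libraries. Such an order without overlap, with the knockdown libraries below, was found for 7.43% of all tested genes. The log2 fold change of knockdown over hypoxia was -0.13 (SE 0.0750, 95% interval -0.29 to 0.04, adjusted p = 0.62), and 0.06 with adjusted p = 0.71 over normoxia. The lower end of that interval, -0.29, bounds the fall of the transcript that these libraries allow. Between 1309 and 1725 reads lay behind each of the 6 values. The counts cover the whole gene and say nothing of the HIF-1α protein, which was not measured in these files. The group is therefore called by its label.

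No gene of the HIF pathway list, of 20 tested, passed, against 1.26% of all tested genes higher and 0.449% lower. The median log2 fold change of the list was -0.003, and that of all 17578 genes was also -0.003. An unadjusted p under 0.05 was found for 2 of the 20 in edgeR, and DESeq2 and limma-voom called none. Among the partners, Epas1, which encodes HIF-2α, stood at 834, 922 and 496 CPM in the knockdown libraries, 954, 762 and 920.1 CPM in the hypoxia libraries and 1228, 1073 and 935 CPM in the normoxia libraries. Knockdown library 3 was the low one and the groups overlapped (log2 fold change -0.23, SE 0.20, adjusted p = 0.77). Arnt, the dimer partner of both α subunits, had 98.6, 103 and 105 CPM in the knockdown libraries, against 92.2, 96.4 and 89.1 CPM in the hypoxia libraries. These values did not overlap, an order with knockdown above that 8.58% of all tested genes showed, but the difference was 0.14 on the log2 scale and missed the threshold (adjusted p = 0.49). Hif3a, another α subunit, was uneven in both groups, with 10.6, 1.57 and 12.8 CPM in the knockdown libraries, against 2.88, 6.72 and 4.08 CPM in the hypoxia libraries.

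The other members of the list, among them inhibitors of HIF, did not pass either, and most differed little from hypoxia. Hif1an, the asparaginyl hydroxylase that blocks the HIF transactivation domain, had 94.5, 90.6 and 102 CPM in the knockdown libraries, 108, 103 and 105 CPM in the hypoxia libraries and 131, 123 and 119 CPM in the normoxia libraries. The knockdown libraries were the lowest of the 3 groups (log2 fold change over hypoxia -0.13, adjusted p = 0.59, and over normoxia -0.37 with adjusted p = 0.013). Of the prolyl hydroxylases, Egln1 differed by -0.07, Egln2 by 0.14 and Egln3 by -0.19 on the log2 scale, with adjusted p values of 0.84, 0.54 and 0.94. Vhl, the substrate receptor of the ubiquitin ligase, differed by 0.05, and its partners Elob, Eloc, Cul2 and Rbx1 by 0.09, 0.06, 0.14 and 0.15. Siah2, a ligase for prolyl hydroxylases, had 9.16, 10.3 and 8.15 CPM in the knockdown libraries, against 10.1, 13.8 and 11.95 CPM in the hypoxia libraries, values that overlapped by 1 library. Cited2, which competes with HIF for the coactivator p300, had 53.1, 54.9 and 47.7 CPM in the knockdown libraries, against 67.8, 61.2 and 56.7 CPM in the hypoxia libraries without overlap (log2 fold change -0.26, adjusted p = 0.49). Arnt2, an ARNT paralogue, was scarce and also lower without overlap, at 0.726, 0.784 and 0.703 CPM in the knockdown libraries, against 1.495, 1.94 and 1.38 CPM in the hypoxia libraries. Its difference was the largest of the list (log2 fold change -1.11, 95% interval -2.11 to -0.12, adjusted p = 0.38). The remaining list members Os9, Ubxn7, Rack1 and Siah1a had log2 fold changes between -0.08 and 0.13.

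Of 39 tested HIF target genes, 2 rose and none fell, with a median of 0.02, against 1.26% of all tested genes higher. The 2 genes were also the only called members of the glycolysis list, which had 28 tested genes and a median of 0.03. Pfkfb3, whose product makes fructose 2,6-bisphosphate and so speeds glycolysis, had 302, 268 and 294 CPM in the knockdown libraries, 211, 229 and 197 CPM in the hypoxia libraries and 126, 110.2 and 106 CPM in the normoxia libraries. The knockdown libraries were the highest, the hypoxia libraries lay between and the normoxia libraries were lowest, with no overlap between any groups (knockdown over hypoxia log2 fold change 0.44, SE 0.0910, adjusted p = 0.038; over normoxia 1.34 with adjusted p = 9.4e-06). Slc16a3, which encodes the lactate exporter MCT4, had 16.4, 20.4 and 21.7 CPM in the knockdown libraries, 13.4, 11.6 and 12.01 CPM in the hypoxia libraries and 14.3, 12.3 and 12.8 CPM in the normoxia libraries. Here the hypoxia and normoxia libraries shared a range and the knockdown libraries lay above both (knockdown over hypoxia log2 fold change 0.66, SE 0.14, adjusted p = 0.04). Both calls were fragile. Pfkfb3 lost its call without any 1 of knockdown 1 or 3, hypoxia 1 or 3, normoxia 2 or 3 (adjusted p = 0.057 to 0.17). Slc16a3 lost it without any 1 of knockdown 2 or 3, hypoxia 1, 2 or 3, normoxia 2 or 3 (adjusted p = 0.062 to 0.19). Both were also lost in a fit of the 6 libraries alone (adjusted p = 0.054 and 0.080).

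The best known targets did not pass, and for these the intervals say how much change the data allow; they were chosen after their values were seen. Vegfa, the vascular growth factor, had 1041, 1032 and 996 CPM in the knockdown libraries, against 1032, 1029 and 1118 CPM in the hypoxia libraries, which overlapped (log2 fold change -0.05, 95% interval -0.25 to 0.15). Ldha, lactate dehydrogenase A, had 345, 380.4 and 339 CPM in the knockdown libraries, against 353, 316 and 383 CPM in the hypoxia libraries and likewise overlapped (log2 fold change 0.02, 95% interval -0.22 to 0.25). Slc2a1, the glucose transporter GLUT1, differed by 0.12 (95% interval -0.17 to 0.41). Pdk1, whose product inhibits pyruvate dehydrogenase, was above the hypoxia range in all 3 knockdown libraries and missed the threshold (log2 fold change 0.38, adjusted p = 0.17). It had 70.6, 66.1 and 69.1 CPM in the knockdown libraries, against 58.3, 55.4 and 44.9 CPM in the hypoxia libraries.

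**Figure D1:**
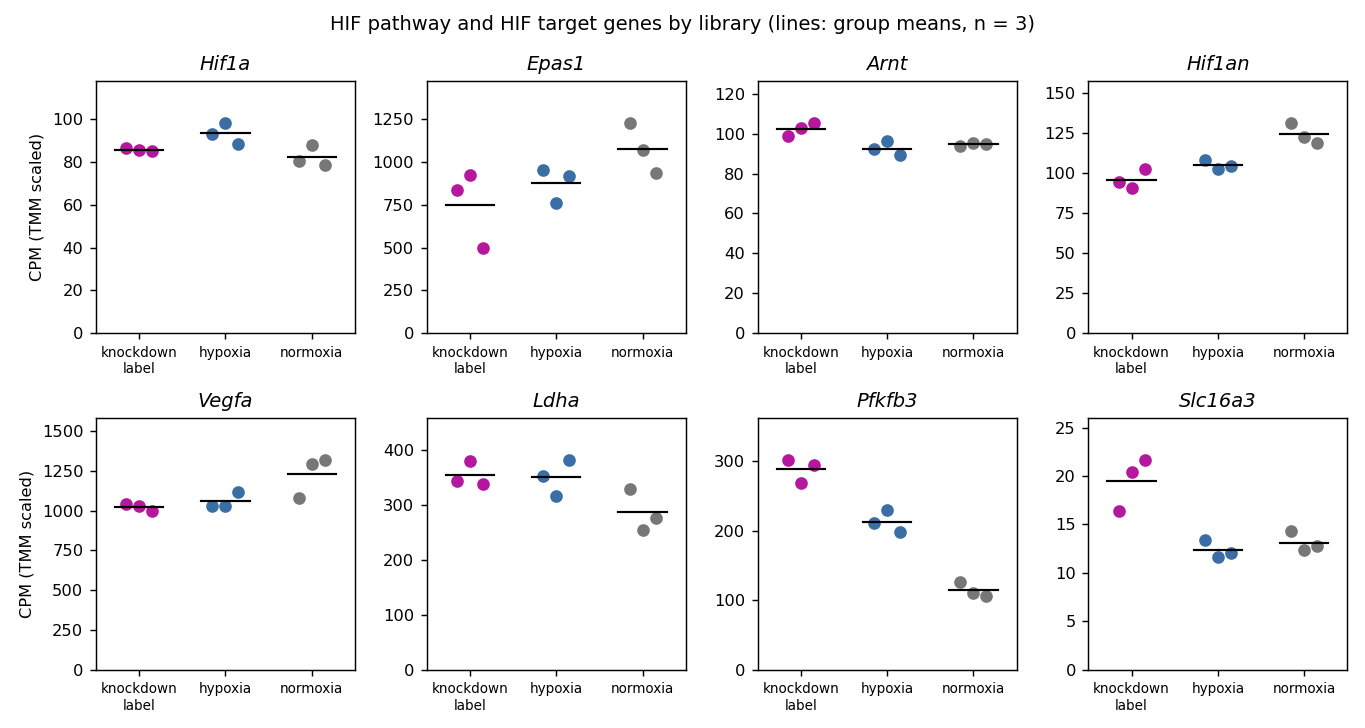
Level of 8 HIF pathway and HIF target genes in each library, as TMM-scaled CPM from 0, with knockdown-label libraries at left, hypoxia in the middle and normoxia at right; points are libraries and lines are means of 3. Hif1a lies between 78.6 and 98.3 CPM throughout, Epas1 is low in knockdown library 3, and Pfkfb3 and Slc16a3 are highest in the knockdown libraries.

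Promoters of these 2 called targets are shown because they hold the core bases that HIF binds. Sequences are from the RefSeq promoter table for GRCm38.p6 and cover 250 bases before an annotated start, written 5′ to 3′ on the gene's strand. Capitals mark ACGTG or GCGTG on either strand, where the other strand reads CACGT or CACGC. Pfkfb3 has 2 starts in the table and the one with more matches is shown.
Pfkfb3, chr2:11502091-11502340, minus strand: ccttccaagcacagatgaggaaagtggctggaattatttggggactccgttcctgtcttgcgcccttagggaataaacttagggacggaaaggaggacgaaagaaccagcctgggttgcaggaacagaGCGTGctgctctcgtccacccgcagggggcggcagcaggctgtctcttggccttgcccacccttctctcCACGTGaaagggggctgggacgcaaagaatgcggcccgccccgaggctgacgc
Slc16a3, chr11:120948817-120949066, plus strand: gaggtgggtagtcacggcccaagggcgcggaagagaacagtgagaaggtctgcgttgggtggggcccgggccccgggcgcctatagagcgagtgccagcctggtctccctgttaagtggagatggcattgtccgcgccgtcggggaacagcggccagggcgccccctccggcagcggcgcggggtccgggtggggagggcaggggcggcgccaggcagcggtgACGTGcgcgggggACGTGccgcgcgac
At least 1 of the 2 motifs was present in 57.6% of the promoters of the 12442 tested genes that matched the table, and in 28 of 31 matched genes of the HIF target list (90.3%). That list was made of HIF targets, so its share is no result about these libraries. A match is a run of letters and not a measured site.

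Across all genes, 222 rose and 79 fell with the knockdown label, which is 1.26% and 0.449% of the 17578 tested genes. All 301 (1.71%) were without overlap between the groups, which a call with 3 libraries a group tends to bring. It is thus no further support. Of all tested genes, 8.58% had the knockdown libraries above the hypoxia libraries without overlap and 7.43% had them below. Without hypoxia library 2 the number of falls was 243, and without any 1 of the knockdown libraries or hypoxia library 1 or 3 it was 30 to 46. A list of 265 tested interferon-responsive genes held 142 of the rises and none of the falls (median log2 fold change 0.81), and a list of 130 T and NK cell genes held 27 of the falls and none of the rises (median -0.58). The T and NK cell count was 50 without hypoxia library 2, 12 to 16 without any 1 of the other two hypoxia or the 3 knockdown libraries, and 9 by limma-voom. Outside both lists, 80 genes rose and 52 fell of 17185 tested, which is 0.466% and 0.303%, with a median of -0.005. These falls numbered 193 without hypoxia library 2 and 18 to 32 without any 1 of the knockdown libraries, hypoxia library 1 or 3 or normoxia library 3. The rises outside both lists numbered 37 to 51 without any 1 of knockdown library 3, hypoxia library 2 or 3 or normoxia library 3. The 52 falls comprised 18 immunoglobulin genes, 3 T cell receptor segments, 6 predicted genes and 25 named genes, and the 80 rises comprised 61 named and 19 predicted or unnamed genes. The falls were larger in size, with a median of 2.24 on the log2 scale against 1.005 for the rises.

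**Figure D2:**
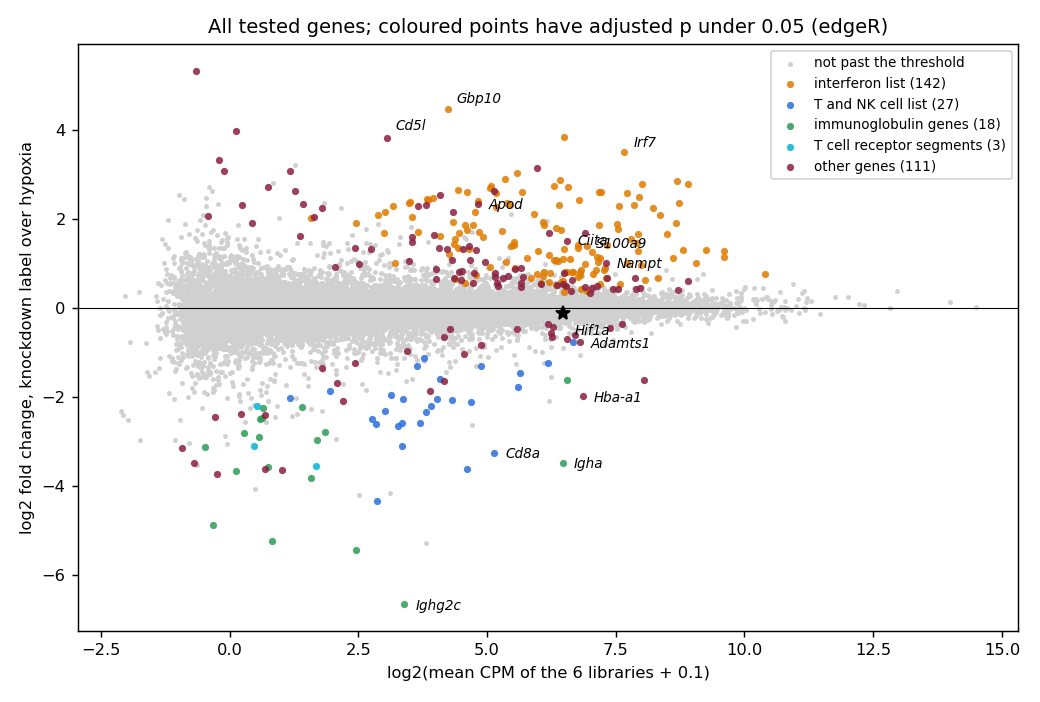
Log2 fold change of the knockdown label over hypoxia (vertical) against log2 of the mean CPM of the 6 libraries plus 0.1 (horizontal) for 17578 genes; coloured points have adjusted p under 0.05 and are coloured by class. The 142 called interferon genes lie above 0, the 27 T and NK cell genes and 18 immunoglobulin genes lie below 0, and Hif1a, drawn as a star, lies near 0 at -0.13.

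The interferon genes give the scale of the response. Irf7 (chr7:141262706-141266481 of GRCm38, minus strand), a transcription factor of the interferon response, had 389, 309 and 419.6 CPM in the knockdown libraries, against 37.2, 24.4 and 37.8 CPM in the hypoxia libraries (log2 fold change 3.49, SE 0.18, adjusted p = 4.4e-06). Isg15, a ubiquitin-like protein induced by interferon, had 92.9, 88.1 and 75.2 CPM in the knockdown libraries, against 12.9, 6.72 and 11.7 CPM in the hypoxia libraries. Each knockdown library was several times above the highest hypoxia library for both genes, and the normoxia libraries were low as well, at 21.2, 22.6 and 24.4 CPM for Irf7 and 7.65, 9.12 and 13.4 CPM for Isg15. Gbp10, a guanylate-binding protein, had the largest called rise of the list at 4.47 (adjusted p = 1.4e-05). Reads of the near-identical guanylate-binding genes may be shared by the counting step, so Gbp10 and Gbp6 (2.88) are uncertain one by one. The rise of Irf7, Isg15 and Gbp10 held when any 1 library was left out.

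Promoters of 2 called interferon genes are shown with GAAA, any 2 bases and GAAA in capitals, the core bases of the interferon-stimulated response element, on either strand (TTTC, any 2 bases and TTTC on the other). Both are from the same RefSeq table for GRCm38.p6, with matches that overlap joined in 1 run of capitals.
Isg15, chr4:156200819-156201068, minus strand: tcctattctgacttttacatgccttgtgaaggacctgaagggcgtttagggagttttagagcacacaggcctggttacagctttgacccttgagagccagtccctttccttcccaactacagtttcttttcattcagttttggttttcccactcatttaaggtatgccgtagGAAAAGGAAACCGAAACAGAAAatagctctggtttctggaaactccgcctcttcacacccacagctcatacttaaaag
Ifit3, chr19:34583279-34583528, plus strand: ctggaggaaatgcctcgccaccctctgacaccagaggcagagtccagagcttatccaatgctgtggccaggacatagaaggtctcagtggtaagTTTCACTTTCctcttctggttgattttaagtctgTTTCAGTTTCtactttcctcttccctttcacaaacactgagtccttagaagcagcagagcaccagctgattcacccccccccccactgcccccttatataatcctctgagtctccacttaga
The motif stood in 41 of 104 matched interferon genes that rose (39.4%) and in 8 of 62 matched genes that rose outside both lists (12.9%). It stood in 2 of 19 matched genes that fell outside both lists and are no receptor segments. None of 17 matched T and NK cell genes that fell held it, against 3.38% of all 12442. The interferon list was made of interferon-responsive genes, and the share in its members that did not rise was not computed. The 39.4% thus cannot be read as a result about the genes that rose. The HIF core motifs stood in 36.5% of the interferon genes that rose and in 50% of the other genes that rose, against 57.6% of all. Ifit3, an interferon-induced gene, had 462, 412 and 380.1 CPM in the knockdown libraries, against 70.2, 71.5 and 81.1 CPM in the hypoxia libraries.

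Outside both lists, genes of phagocytes were among those that rose. Here and below, outside means only that a gene is not an entry of either list. Whether such genes respond to interferon was not tested. In the macrophage scavenger receptor list 4 of 28 tested genes rose and none fell (median 0.60, 24 of 28 above 0). In the list of monocytes and interstitial macrophages 3 of 25 rose (median 0.46). Among all tested genes 1.26% rose and 0.449% fell. C1qa and C1qb are in both lists and in the complement list, so these counts are not independent. Cd5l (chr3:87357881-87371073 of GRCm38, plus strand), a protein secreted by tissue macrophages that protects them from cell death, had 15.2, 6.66 and 23.97 CPM in the knockdown libraries, 0.609, 0.969 and 1.67 CPM in the hypoxia libraries and 0.506, 0.483 and 0.180 CPM in the normoxia libraries. It was low outside the knockdown group and spread widely within it (log2 fold change 3.82, SE 0.50, adjusted p = 0.0018). Siglec1, the sialic acid-binding receptor CD169, had 18.7, 31.2 and 29.9 CPM in the knockdown libraries, against 11.1, 11.7 and 8.97 CPM in the hypoxia libraries (log2 fold change 1.33, SE 0.21, adjusted p = 0.0069). All 3 knockdown libraries lay above the hypoxia range. C1qb and C1qa, subunits of the complement component C1q that macrophages make, rose together. C1qb had 63.1, 67.0 and 62.1 CPM in the knockdown libraries, against 37.2, 36.4 and 44.7 CPM in the hypoxia libraries (0.70, adjusted p = 0.0062 on the log2 scale). C1qa had 62.3, 67.3 and 51.1 CPM in the knockdown libraries, against 25.7, 31.3 and 41.8 CPM in the hypoxia libraries (0.87, adjusted p = 0.031). Neither overlapped between the groups. The calls of Cd5l, Siglec1 and C1qb held when any 1 library was left out, and that of C1qa was lost without any 1 of knockdown 1 or 2, hypoxia 1 or 2, normoxia 2 or 3 (adjusted p = 0.052 to 0.13).

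Receptors of myeloid cells were also among the rises. Cd300e, a receptor of monocytes, had 16.1, 15.7 and 18.9 CPM in the knockdown libraries, against 7.14, 4.62 and 6.55 CPM in the hypoxia libraries (1.47, adjusted p = 0.01), a call that was lost without knockdown 3 (adjusted p = 0.065). The next 4 genes were chosen after their values were seen. Ccr1, a chemokine receptor of myeloid cells, had 20.2, 24.95 and 26.8 CPM in the knockdown libraries, against 11.2, 8.95 and 8.05 CPM in the hypoxia libraries (1.35, adjusted p = 7.0e-04). Tlr13, a sensor of bacterial ribosomal RNA, had 29.9, 34.2 and 34.8 CPM in the knockdown libraries, against 16.6, 12.5 and 10.6 CPM in the hypoxia libraries (1.32, adjusted p = 0.0063). For both, every knockdown library exceeded every hypoxia library by a clear margin, and the calls held when any 1 library was left out. Fcgr3, an Fc receptor for immunoglobulin G, had 43.1, 56.3 and 59.7 CPM in the knockdown libraries, against 33.9, 30.1 and 32.5 CPM in the hypoxia libraries (0.72, adjusted p = 0.01). The call was lost without any 1 of knockdown 2 or 3, hypoxia 3 (adjusted p = 0.053 to 0.063). Cd300lf, a lipid-binding receptor of myeloid cells, had 29.0, 42.0 and 45.7 CPM in the knockdown libraries, against 19.5, 14.9 and 13.4 CPM in the hypoxia libraries (1.29, adjusted p = 0.019). The call was lost without any 1 of knockdown 2 or 3, hypoxia 2 or 3 (adjusted p = 0.05 to 0.1). Gpr141, an orphan receptor named by the size of its rise, had 20.7, 20.4 and 29.8 CPM in the knockdown libraries, against 11.7, 6.10 and 5.12 CPM in the hypoxia libraries (1.63, adjusted p = 0.022). The call was lost without any 1 of knockdown 1 or 3, hypoxia 2 or 3 (adjusted p = 0.051 to 0.11).

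The defining markers of macrophages did not pass. Cd68, a lysosomal membrane protein, had 25.3, 48.6 and 39.2 CPM in the knockdown libraries, against 29.4, 24.2 and 22.99 CPM in the hypoxia libraries. Marco, a scavenger receptor of alveolar macrophages, had 5.64, 13.9 and 13.8 CPM in the knockdown libraries, against 5.82, 7.29 and 7.24 CPM in the hypoxia libraries. Siglecf had 7.65, 18.03 and 14.8 CPM in the knockdown libraries, against 10.7, 12.4 and 10.4 CPM in the hypoxia libraries. All 3 markers overlapped between the groups through the first knockdown library and none was at 0. None of 19 tested alveolar macrophage genes passed (median 0.31, 16 above 0, 5 with an unadjusted p under 0.05 and 1 called by DESeq2; 2 rose without knockdown library 1), with summed levels of 1122, 1740 and 1943 CPM in the knockdown libraries and 1220, 1336 and 1158 CPM in the hypoxia libraries. The monocyte genes Ly6c2 and Ccr2 overlapped as well. Ly6c2 had 56.5, 95.1 and 55.8 CPM in the knockdown libraries, against 68.4, 19.8 and 45.9 CPM in the hypoxia libraries. Ccr2 had 82.2, 79.3 and 79.6 CPM in the knockdown libraries, against 89.0, 55.7 and 69.2 CPM in the hypoxia libraries. The summed levels of the scavenger list were 2891 to 3277 CPM in the knockdown group and 2599 to 2873 CPM in the hypoxia group, and those of the monocyte list 2506 to 2870 CPM in the knockdown group and 2151 to 2486 CPM in the hypoxia group. The part of cell numbers in these rises was not tested.

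Genes of antigen presentation by MHC class II rose in part. Of 12 tested genes, 3 rose and none fell (median 0.22), against 1.26% of all tested genes higher. Only 1 rose without any 1 of knockdown library 2, hypoxia library 1, 2 or 3 or normoxia library 3. Ciita (chr16:10480059-10528418 of GRCm38, plus strand), the transactivator on which class II transcription depends, had 138, 144 and 132 CPM in the knockdown libraries, 47.5, 47.1 and 52.0 CPM in the hypoxia libraries and 23.02, 34.8 and 27.2 CPM in the normoxia libraries. The 3 groups did not overlap, with knockdown highest and normoxia lowest (log2 fold change 1.501, SE 0.13, adjusted p = 7.6e-05). The call held when any 1 library was left out. Ctss, the protease that trims the invariant chain, had 233, 341 and 288 CPM in the knockdown libraries, against 189, 164 and 189 CPM in the hypoxia libraries (0.67, adjusted p = 0.026). H2-DMb1, a subunit of the peptide exchange factor, had 93.6, 112 and 86.1 CPM in the knockdown libraries, against 66.3, 66.4 and 70.9 CPM in the hypoxia libraries (0.52, adjusted p = 0.021). Both were without overlap but fragile, the first lost without any 1 of knockdown 2 or 3, hypoxia 1, 2 or 3, normoxia 3 (adjusted p = 0.052 to 0.1) and the second without any 1 of knockdown 1 or 2, hypoxia 1, 2 or 3, normoxia 3 (adjusted p = 0.05 to 0.11). The class II chains themselves did not pass: H2-Ab1, H2-Aa, H2-Eb1 and Cd74 differed by 0.32, 0.19, 0.24 and 0.21 on the log2 scale, with adjusted p values of 0.49, 0.71, 0.52 and 0.72. Bst2, an interferon-induced surface protein, was the 1 called gene of 28 in the dendritic cell list (1.40, adjusted p = 2.5e-04) and also belongs to the interferon list.

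Neutrophil transcripts were the list with the highest median. Of 32 tested genes 6 rose and none fell (median 0.89, 28 above 0), against 1.26% of all tested genes higher. Without knockdown library 3 or hypoxia library 3 the number that rose was 3. S100a8 and S100a9 encode the subunits of calprotectin, the chief cytosolic protein of neutrophils. S100a8 had 79.9, 129 and 127 CPM in the knockdown libraries, 41.9, 31.2 and 31.4 CPM in the hypoxia libraries and 39.0, 79.9 and 58.5 CPM in the normoxia libraries (log2 fold change 1.68, SE 0.26, adjusted p = 0.0054). S100a9 had 139, 219.5 and 189 CPM in the knockdown libraries, 78.2, 47.4 and 46.2 CPM in the hypoxia libraries and 47.5, 131 and 93.8 CPM in the normoxia libraries (1.67, adjusted p = 0.029). In both genes the knockdown group was high and the hypoxia group low, while the normoxia mean lay between. Normoxia library 1 lay within the hypoxia range for both, and for S100a8 normoxia library 2 reached the lowest knockdown library. Knockdown over normoxia was 0.92 with adjusted p = 0.047 for S100a8 and 1.01 with adjusted p = 0.087 for S100a9. Hypoxia over normoxia was -0.76 with adjusted p = 0.14 for S100a8 and -0.67 with adjusted p = 0.33 for S100a9. Ly6g, the surface marker by which mouse neutrophils are sorted, was low but higher in each knockdown library, at 2.29, 5.49 and 4.28 CPM in the knockdown libraries, against 0.665, 0.798 and 0.460 CPM in the hypoxia libraries (log2 fold change 2.63, SE 0.42, adjusted p = 0.0069). Il1r2, a decoy receptor for interleukin 1, had 4.30, 3.72 and 8.73 CPM in the knockdown libraries, against 1.495, 1.48 and 0.575 CPM in the hypoxia libraries (2.23, adjusted p = 0.021). Slfn4, a Schlafen gene of myeloid cells that the interferon list holds too, had 132, 173 and 203 CPM in the knockdown libraries, against 17.7, 10.7 and 6.84 CPM in the hypoxia libraries (3.84, adjusted p = 8.2e-04). Mrgpra2b, a G protein-coupled receptor, had 14, 20 and 18 reads in the knockdown libraries, against 0, 1 and 0 reads in the hypoxia libraries.

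The calls of S100a8, Ly6g and Slfn4 held when any 1 library was left out. S100a9 lost its call without any 1 of knockdown 2 or 3, hypoxia 2 or 3, normoxia 3 (adjusted p = 0.059 to 0.14). Il1r2 lost its call without knockdown 3 (adjusted p = 0.092) or hypoxia 3 (adjusted p = 0.065). Mrgpra2b lost its call without any 1 of knockdown 1, 2 or 3, hypoxia 1, 2 or 3, normoxia 3 (adjusted p = 0.053 to 0.14). Csf3r, the receptor for the neutrophil growth factor G-CSF, had 87.5, 116 and 114 CPM in the knockdown libraries, against 81.1, 47.1 and 30.3 CPM in the hypoxia libraries, which did not overlap but missed the threshold (1.00, adjusted p = 0.47). Summed levels of the list were 2582 to 2916 CPM in the knockdown group, 1932 to 2281 CPM in the hypoxia group and 2128 to 2365 CPM in the normoxia group. The granule genes Camp (-0.20), Ltf (-0.41) and Ngp (-0.05) did not pass and were chosen after their values were seen. They go against the direction of their list, in which 28 of 32 tested genes lay above 0 and 4 below. Among 33 tested cytokine and chemokine genes none passed, 8 had an unadjusted p under 0.05 and DESeq2 called 2 (median 0.27). Il1b, the gene of interleukin 1β, had 22.7, 47.2 and 37.9 CPM in the knockdown libraries, against 19.1, 10.3 and 7.59 CPM in the hypoxia libraries (1.54, adjusted p = 0.14).

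Acod1, which makes itaconate in activated macrophages, was the 1 called gene of 37 in the macrophage activation list, which had 4 rises without knockdown library 1, 2 without knockdown library 2 or normoxia library 2, 3 without hypoxia library 1 or 3 or normoxia library 1, and 7 by DESeq2. It had 3.91, 4.77 and 2.99 CPM in the knockdown libraries, against 0.443, 0.456 and 0.460 CPM in the hypoxia libraries (log2 fold change 3.08, SE 0.49, adjusted p = 0.0069), low in hypoxia and in normoxia, and the call held when any 1 library was left out. Cfp, the complement activator properdin, had 26.0, 27.96 and 30.0 CPM in the knockdown libraries, against 14.9, 16.8 and 16.3 CPM in the hypoxia libraries (0.81, adjusted p = 0.013) and was lost without any 1 of knockdown 3, hypoxia 1 or 3 (adjusted p = 0.052 to 0.07). With C1qa and C1qb it made 3 called genes of 33 in the complement and coagulation list, beside 1.26% of all tested genes higher. That number was 5 without knockdown library 1, 1 without hypoxia library 1 and 6 by DESeq2. The lysosome list held 1 called gene of 30, Ctss, while 28 of its 30 log2 fold changes lay above 0 (median 0.20), against 49.4% of all genes.

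**Figure D3:**
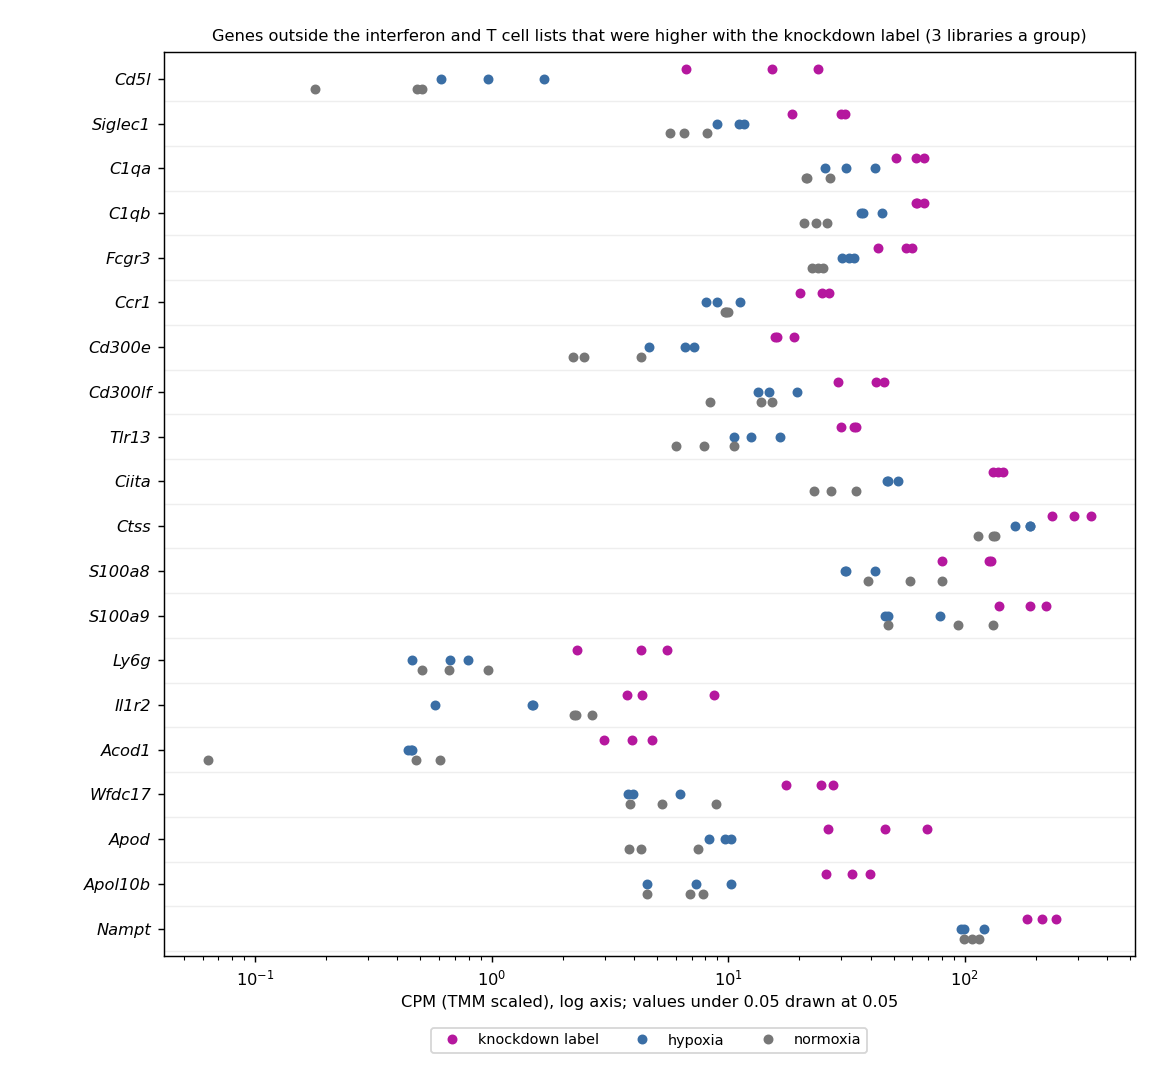
TMM-scaled CPM on a log axis of 20 genes outside the interferon and T cell lists that rose with the knockdown label; each point is 1 library, with knockdown, hypoxia and normoxia in 3 lines per gene from top to bottom. In every row the 3 knockdown points lie to the right of the 3 hypoxia points, while for S100a8 and S100a9 normoxia points reach or come near the knockdown range.

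Other rises had no list in common. Nampt (chr12:32819545-32853349 of GRCm38, plus strand), the rate-limiting enzyme of NAD salvage, was chosen after its value was seen and had 213, 183 and 243 CPM in the knockdown libraries, 99.3, 120.3 and 96.0 CPM in the hypoxia libraries and 115, 99.3 and 108 CPM in the normoxia libraries. The hypoxia and normoxia libraries shared a range and the knockdown libraries lay above it (log2 fold change 1.02, SE 0.12, adjusted p = 9.3e-04), also when any 1 library was left out. Pik3ip1, an inhibitor of PI3 kinase and likewise chosen after its value was seen, had 64.0, 60.6 and 57.3 CPM in the knockdown libraries, 41.5, 44.1 and 37.4 CPM in the hypoxia libraries and 24.1, 25.9 and 21.1 CPM in the normoxia libraries, in 3 separate ranges (0.56, adjusted p = 0.016), with the call lost without any 1 of knockdown 1 or 2, hypoxia 1 or 3 (adjusted p = 0.054 to 0.091). Apod, a lipid-carrying lipocalin, had 46.2, 26.3 and 69.5 CPM in the knockdown libraries, against 9.69, 8.32 and 10.2 CPM in the hypoxia libraries (2.33, adjusted p = 0.003). Its spread within the knockdown group was wide, with the second library lowest. The adipocyte list, which also varied by library, had summed levels of 659, 396 and 691 CPM in the knockdown libraries and 392, 572 and 323 CPM in the hypoxia libraries, its median log2 fold change was 0.69, none of its 16 tested genes passed (1 with an unadjusted p under 0.05, and 1 called by DESeq2), and its part in the Apod rise was not tested. Wfdc17, a whey acidic protein domain gene expressed by myeloid cells, had 17.5, 24.6 and 27.6 CPM in the knockdown libraries, against 6.26, 3.76 and 3.97 CPM in the hypoxia libraries (2.31, adjusted p = 0.0022).

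Apol10b, of the apolipoprotein L family, had 33.3, 39.6 and 25.8 CPM in the knockdown libraries, against 10.2, 4.56 and 7.30 CPM in the hypoxia libraries (2.16, adjusted p = 0.0018), whereas its relative Apol11b was among the falls, at 0.503, 0.653 and 0.293 CPM in the knockdown libraries, against 3.27, 2.28 and 2.13 CPM in the hypoxia libraries (-2.40, adjusted p = 0.029). Reads of such relatives may be shared by the counting step. Olfr56, an olfactory receptor gene, had 28.4, 27.3 and 30.8 CPM in the knockdown libraries, against 6.04, 3.65 and 5.35 CPM in the hypoxia libraries (2.52, adjusted p = 6.5e-05). Its span in GENCODE M21 overlaps the interferon list genes Ifi47 on the same strand and Tgtp1 and Tgtp2 on the other, so its reads cannot be assigned to it alone. Majin, a gene of meiotic telomere attachment, was scarce at 3.30, 2.09 and 2.81 CPM in the knockdown libraries, against 0.443, 0.399 and 0.402 CPM in the hypoxia libraries and was lost without knockdown 1 (adjusted p = 0.054) or hypoxia 3 (adjusted p = 0.056). BC023105 rose by 2.33 and the pseudogene Gvin-ps1 by 1.61, the first lost without knockdown 2 (adjusted p = 0.07) or hypoxia 1 (adjusted p = 0.074) and the second without any 1 of knockdown 2 or 3, hypoxia 1, 2 or 3 (adjusted p = 0.057 to 0.15). The calls of Apod, Wfdc17, Apol10b and Olfr56 held when any 1 library was left out, and that of Apol11b was lost without any 1 of knockdown 1, 2 or 3, hypoxia 1 or 3, normoxia 3 (adjusted p = 0.052 to 0.15).

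Red cell transcripts fell. Of 22 tested erythroid genes 6 fell and none rose (median -1.002), against 0.449% of all genes lower, and the number was 2 without knockdown library 1 or 3 and 3 without hypoxia library 3. Hba-a1, an α-globin gene, had 38.5, 64.3 and 38.6 CPM in the knockdown libraries, 170.1, 191 and 197 CPM in the hypoxia libraries and 406, 648 and 917 CPM in the normoxia libraries. The 3 groups did not overlap, with the knockdown libraries lowest and the normoxia libraries highest (log2 fold change -1.98, SE 0.28, adjusted p = 0.0027; knockdown over normoxia -3.80 with adjusted p = 2.1e-05). Hbb-bs, a β-globin gene, had 113, 161 and 117 CPM in the knockdown libraries, 365, 450.3 and 389 CPM in the hypoxia libraries and 833, 1597 and 2329 CPM in the normoxia libraries and the same order (log2 fold change -1.62, SE 0.30, adjusted p = 0.018). The second α-globin gene, Hba-a2, is nearly identical to Hba-a1, so the pair is best read together (-1.88, adjusted p = 0.014). Alas2, the first enzyme of haem synthesis in red cell precursors, had 7.37, 10.45 and 8.20 CPM in the knockdown libraries, 26.9, 28.8 and 25.1 CPM in the hypoxia libraries and 57.4, 126 and 151 CPM in the normoxia libraries. All 3 knockdown libraries lay below all hypoxia libraries and these below all normoxia libraries (log2 fold change -1.64, SE 0.30, adjusted p = 0.019).

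Summed levels of the erythroid list were 714 to 766 CPM in the knockdown group, 1154 to 1421 CPM in the hypoxia group and 2253 to 5089 CPM in the normoxia group, and 16 of its 22 genes fell in knockdown against normoxia, where 8.22% of all genes passed, 4.78% higher and 3.44% lower. Gata1, a transcription factor of red cell precursors, differed by 0.29 from hypoxia (adjusted p = 0.91). The call of Hba-a1 held when any 1 library was left out. Hba-a2 lost its call without knockdown 1 (adjusted p = 0.062) or knockdown 3 (adjusted p = 0.081). Hbb-bs lost its call without any 1 of knockdown 1 or 3, hypoxia 3 (adjusted p = 0.054 to 0.11). Alas2 lost its call without any 1 of knockdown 1 or 3, hypoxia 3 (adjusted p = 0.051 to 0.1), and limma-voom did not call it (adjusted p = 0.16). How much blood stayed in the lungs at collection is not given, and its part in these falls was not tested.

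Immunoglobulin transcripts were the other large group of falls. Of 87 tested immunoglobulin genes 18 fell and none rose (median -1.43), beside 3 of 11 T cell receptor segments, against 0.449% of all tested genes lower. The immunoglobulin count was 11 without knockdown library 3 or hypoxia library 1, and also by limma-voom. Ighg2c, an immunoglobulin G heavy chain constant gene, had 0.391, 0.196 and 0 CPM in the knockdown libraries, 28.6, 8.38 and 24.9 CPM in the hypoxia libraries and 0.885, 0.121 and 0.240 CPM in the normoxia libraries. It was high in the hypoxia group and near the floor in both others (log2 fold change -6.65, SE 0.76, adjusted p = 6.5e-04; knockdown over normoxia -1.02 with adjusted p = 0.63). Igha, the immunoglobulin A heavy chain constant gene, had 18.3, 10.3 and 15.1 CPM in the knockdown libraries, 239.6, 92.9 and 155 CPM in the hypoxia libraries and 52.7, 32.0 and 13.3 CPM in the normoxia libraries (log2 fold change -3.48, SE 0.48, adjusted p = 0.0025). Igkc, the κ light chain constant gene, had 39.3, 46.2 and 53.3 CPM in the knockdown libraries, 194, 82.7 and 148 CPM in the hypoxia libraries and 68.3, 84.8 and 37.7 CPM in the normoxia libraries (-1.61, adjusted p = 0.03). For both the second hypoxia library was the lowest of its group and still above every knockdown library. Igha and Ighg2c kept their calls when any 1 library was left out, but limma-voom did not call Ighg2c (adjusted p = 0.084). Igkc lost its call without any 1 of knockdown 1, 2 or 3, hypoxia 1 or 3 (adjusted p = 0.094 to 0.13). The B cell marker Ms4a1 did not pass and had 17.2, 22.99 and 20.6 CPM in the knockdown libraries, against 25.6, 17.4 and 21.8 CPM in the hypoxia libraries, and overlapped. In the B and plasma cell list 3 of 36 tested genes fell, and 6 without normoxia library 1. Its summed levels were 975 to 1092 CPM in the knockdown group and 1117 to 1629 CPM in the hypoxia group, and the part of cell numbers in the falls was not tested. Reads of variable segments are uncertain one by one.

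The T cell genes that fell show how far the hypoxia libraries differ among themselves. Cd8a, the CD8 α chain, had 5.64, 10.2 and 4.395 CPM in the knockdown libraries, 92.9, 23.6 and 74.8 CPM in the hypoxia libraries and 4.11, 6.65 and 4.20 CPM in the normoxia libraries. The knockdown and normoxia libraries shared a low range, hypoxia libraries 1 and 3 were high, and hypoxia library 2 lay between (log2 fold change -3.25, SE 0.47, adjusted p = 0.0038). Gzmk, a granzyme, had 0.782, 0.457 and 0.762 CPM in the knockdown libraries, against 19.4, 5.30 and 16.4 CPM in the hypoxia libraries and the same order of libraries (-4.33, adjusted p = 0.0025). By limma-voom neither Cd8a (adjusted p = 0.051) nor Gzmk (adjusted p = 0.07) passed. All 44 tested cell cycle genes had a log2 fold change below 0 (median -0.64), yet none passed, and 17 had an unadjusted p under 0.05 in edgeR. Their summed levels were 745, 764 and 785 CPM in the knockdown libraries, against 1355, 645 and 1266 CPM in the hypoxia libraries, so hypoxia library 2 lay below the knockdown range and the other two far above it. Without hypoxia library 2, 26 cell cycle genes passed, all of them lower, and with all libraries DESeq2 called 3.

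Several named falls had the same shape, high in hypoxia libraries 1 and 3 and less so in library 2. Rasal3, a Ras regulator of blood cells, had 13.6, 15.4 and 17.2 CPM in the knockdown libraries, against 40.9, 20.4 and 33.1 CPM in the hypoxia libraries (-1.03, adjusted p = 0.04). Il27ra, a cytokine receptor subunit of lymphocytes, had 6.37, 7.38 and 7.97 CPM in the knockdown libraries, against 18.5, 10.4 and 13.9 CPM in the hypoxia libraries (-0.98, adjusted p = 0.042). Kcnn4, a calcium-activated potassium channel of lymphocytes and red cells, had 2.96, 3.27 and 3.22 CPM in the knockdown libraries, against 9.19, 5.19 and 8.05 CPM in the hypoxia libraries (-1.25, adjusted p = 0.033). In each of the 3 genes the normoxia libraries lay in or near the knockdown range. Acsbg1, an acyl-CoA synthetase, had 1.73, 1.502 and 1.88 CPM in the knockdown libraries, against 11.2, 4.05 and 6.67 CPM in the hypoxia libraries (-2.10, adjusted p = 0.01). Gramd3, of the GRAM domain family, fell by 0.84 on the log2 scale and Cdc20b, a relative of the mitotic activator Cdc20, by 2.39. Il27ra and Cdc20b each overlap a gene on the opposite strand (Palm3 and Gpx8), and without strand in the counting such pairs cannot be told apart. The same holds for Ciita (Dexi), Alas2 (Apex2), Cd300lf (Rab37) and Pik3ip1 (Gm12592). Sfpq and Igkc each overlap a gene on the same strand (Gm12940 and Gm30211).

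None of the 6 calls of Rasal3, Il27ra, Kcnn4, Acsbg1, Gramd3 and Cdc20b held when any 1 library was left out. Rasal3 was lost without any 1 of knockdown 1, 2 or 3, hypoxia 1 or 3, normoxia 2 or 3 (adjusted p = 0.061 to 0.16). Il27ra lost its call without any 1 of knockdown 1, 2 or 3, hypoxia 1 or 3, normoxia 1, 2 or 3 (adjusted p = 0.052 to 0.16). Kcnn4 lost its call without any 1 of knockdown 1, 2 or 3, hypoxia 1 or 3, normoxia 2 or 3 (adjusted p = 0.053 to 0.14). Acsbg1 was lost without any 1 of knockdown 1, 2 or 3 (adjusted p = 0.05 to 0.056). Gramd3 was lost without any 1 of knockdown 1, 2 or 3, hypoxia 1 or 3, normoxia 3 (adjusted p = 0.058 to 0.13). Cdc20b lost its call without any 1 of knockdown 1, 2 or 3, hypoxia 1 or 3, normoxia 2 or 3 (adjusted p = 0.052 to 0.15). Without hypoxia library 2 all 6 kept their calls.

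Adamts1 (chr16:85793827-85803113 of GRCm38, minus strand), a matrix metalloprotease that cleaves proteoglycans, was the 1 called gene of 43 in the fibroblast and matrix list (2 without hypoxia library 2), against 0.449% of all tested genes lower. It had 76.8, 99.4 and 72.8 CPM in the knockdown libraries, 152, 141 and 132 CPM in the hypoxia libraries and 255, 253 and 269 CPM in the normoxia libraries. The knockdown libraries were lowest, the hypoxia libraries lay between and the normoxia libraries were highest, with narrow ranges (log2 fold change -0.77, SE 0.11, adjusted p = 0.0041; knockdown over normoxia -1.64 with adjusted p = 1.0e-05). The call held when any 1 library was left out. Wfikkn2, an inhibitor of growth factors of the TGF-β family, had 2.46, 1.44 and 1.82 CPM in the knockdown libraries, against 5.93, 4.501 and 4.20 CPM in the hypoxia libraries (-1.35, adjusted p = 0.033), with the normoxia libraries at 1.96, 1.75 and 1.56 CPM, and was lost without any 1 of knockdown 2 or 3, hypoxia 1 or 3, normoxia 2 or 3 (adjusted p = 0.053 to 0.15). Arl4c, a small GTPase and LXR target, had 61.2, 64.0 and 56.7 CPM in the knockdown libraries, against 101, 81.4 and 88.4 CPM in the hypoxia libraries (-0.57, adjusted p = 0.047) and was lost without any 1 of knockdown 1, 2 or 3, hypoxia 1 or 3, normoxia 3 (adjusted p = 0.071 to 0.2). Its list of LXR and cholesterol efflux genes did not fall as a whole. Of 16 tested genes 1 rose, Cd5l, and 1 fell, with a median of 0.075 and 12 above 0. Among all tested genes 1.26% rose and 0.449% fell.

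A further 5 genes with small falls were chosen after their values were seen and share no list. Irx1, a homeobox factor of lung epithelium, had 50.9, 58.4 and 69.8 CPM in the knockdown libraries, against 91.9, 108 and 83.4 CPM in the hypoxia libraries (-0.66, adjusted p = 0.021). Srf, the serum response factor, had 42.7, 43.1 and 34.9 CPM in the knockdown libraries, against 58.7, 54.99 and 52.9 CPM in the hypoxia libraries (-0.46, adjusted p = 0.039). Sfpq, an RNA-binding protein of the paraspeckle, had 152, 129 and 144 CPM in the knockdown libraries, against 184, 189 and 210.3 CPM in the hypoxia libraries (-0.46, adjusted p = 0.021). In all 3 genes the normoxia libraries lay within or near the hypoxia range and the knockdown libraries below both. Rasgrp3, a Ras exchange factor of endothelium and B cells, had 82.8, 97.7 and 67.0 CPM in the knockdown libraries, against 133, 116 and 127 CPM in the hypoxia libraries (-0.60, adjusted p = 0.03). Nostrin, which directs the traffic of endothelial nitric oxide synthase, had 65.1, 62.7 and 63.8 CPM in the knockdown libraries, against 82.7, 79.7 and 83.2 CPM in the hypoxia libraries (-0.36, adjusted p = 0.039). Irx1 was lost without knockdown 1 (adjusted p = 0.089) or knockdown 2 (adjusted p = 0.079). Srf lost its call without any 1 of knockdown 1, 2 or 3, hypoxia 1, 2 or 3, normoxia 1, 2 or 3 (adjusted p = 0.053 to 0.15). Sfpq lost its call without any 1 of knockdown 2 or 3, hypoxia 3 (adjusted p = 0.069 to 0.099). Rasgrp3 lost its call without any 1 of knockdown 1 or 3, hypoxia 1 or 3, normoxia 2 or 3 (adjusted p = 0.053 to 0.12). Nostrin lost its call without any 1 of knockdown 1, 2 or 3, hypoxia 1 or 3, normoxia 3 (adjusted p = 0.071 to 0.14).

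**Figure D4:**
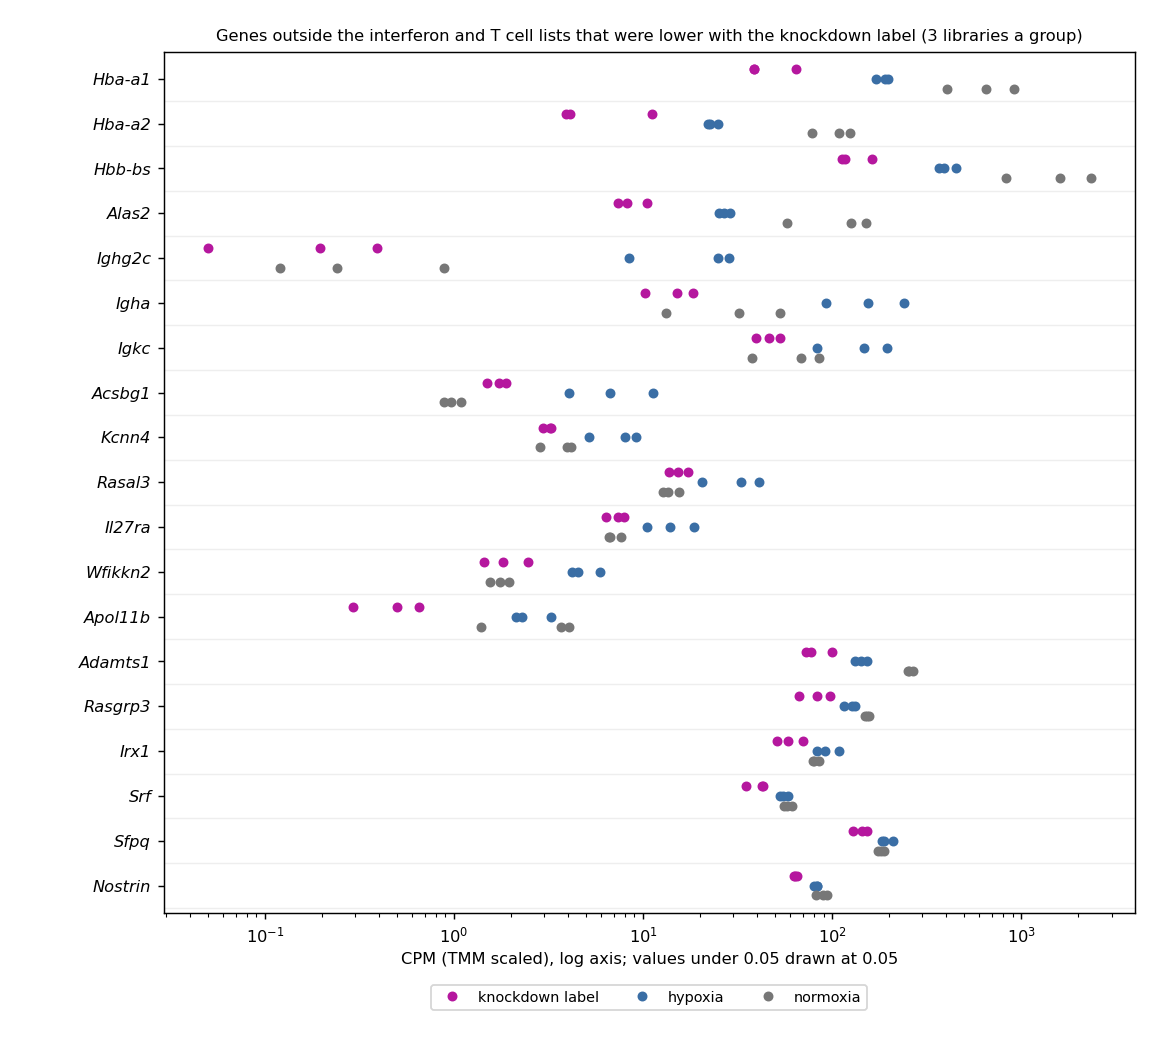
TMM-scaled CPM on a log axis of 19 genes outside the interferon and T cell lists that fell with the knockdown label; each point is 1 library, with knockdown, hypoxia and normoxia in 3 lines per gene from top to bottom, and values under 0.05 drawn at 0.05. The red cell genes run from low in knockdown to high in normoxia, while the immunoglobulin genes are highest in hypoxia.

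The lists of epithelial, endothelial and mural cells held no called gene. None passed among 24 alveolar type 2, 23 alveolar type 1, 21 club and secretory, 19 ciliated, 37 endothelial, 21 smooth muscle and pericyte and 14 mesothelial genes, whose medians lay between -0.04 and 0.11. Of these 159 list entries 18 had an unadjusted p under 0.05 in edgeR, DESeq2 called 6 and limma-voom none. With 1 library left out, at most 1 endothelial gene passed in each direction. Members with the smallest p are given as values. Cxcl15, a chemokine of airway and alveolar epithelium, had 781, 931 and 630.3 CPM in the knockdown libraries, against 1049.8, 1068 and 1032 CPM in the hypoxia libraries without overlap (-0.43, adjusted p = 0.22). Lyz1, a lysozyme of type 2 cells, had 653, 985 and 568 CPM in the knockdown libraries, against 327, 552 and 429 CPM in the hypoxia libraries, also without overlap (0.75, adjusted p = 0.16). Col4a4, a basement membrane collagen of type 1 cells, had 217, 212 and 199.7 CPM in the knockdown libraries, against 255, 248 and 237 CPM in the hypoxia libraries (-0.23, adjusted p = 0.27). Selp, the P-selectin of endothelium and platelets, had 7.60, 4.83 and 5.51 CPM in the knockdown libraries, against 2.27, 2.34 and 2.76 CPM in the hypoxia libraries (1.28, adjusted p = 0.078). Smtn, a smooth muscle protein, had 37.2, 40.6 and 36.7 CPM in the knockdown libraries, against 47.2, 46.2 and 46.7 CPM in the hypoxia libraries (-0.29, adjusted p = 0.13).

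Another 10 lists, of cellular programmes outside immunity, were likewise without called genes, unlike the glycolysis, HIF target, LXR and lysosome lists above. None passed among 43 nuclear oxidative phosphorylation, 13 mitochondrially encoded, 38 ribosomal protein, 24 fatty acid oxidation, 26 sterol and fatty acid synthesis, 27 antioxidant, 29 unfolded protein response, 24 p53 target, 33 vasoregulation and 17 lactylation and acetylation genes, while 20 of these 274 entries had an unadjusted p under 0.05 in edgeR and DESeq2 called 5. Log2 fold changes of the oxidative phosphorylation list stayed between -0.16 and 0.22. Of 21 heat shock genes 19 lay below 0 (median -0.29) and none passed, 1 having an unadjusted p under 0.05; Dnajb1, an HSP40 cochaperone, had 40.6, 36.6 and 37.9 CPM in the knockdown libraries, against 57.1, 58.7 and 60.6 CPM in the hypoxia libraries (-0.61, adjusted p = 0.38). Gpx3, a secreted glutathione peroxidase, had 1052, 1173 and 1376 CPM in the knockdown libraries, against 888, 841 and 885 CPM in the hypoxia libraries (0.46, adjusted p = 0.079). Gsr, glutathione reductase, had 94.6, 111 and 106 CPM in the knockdown libraries, against 88.5, 75.7 and 67.2 CPM in the hypoxia libraries (0.43, adjusted p = 0.095). In both the knockdown libraries were higher without overlap and short of the threshold. Pnpla2, the first lipase of fat breakdown, came closest of the adipocyte list, with 161, 152 and 176 CPM in the knockdown libraries, against 129.5, 125 and 112 CPM in the hypoxia libraries (0.42, adjusted p = 0.051). None of 20 clock genes passed in edgeR, 3 had an unadjusted p under 0.05 and DESeq2 called 1. Nfil3, a repressor of clock output, had 6.65, 8.49 and 7.62 CPM in the knockdown libraries, 5.48, 4.62 and 3.56 CPM in the hypoxia libraries and 22.95, 19.9 and 19.3 CPM in the normoxia libraries, so that the knockdown libraries were above the hypoxia range (adjusted p = 0.093) and both were far below normoxia. Summed clock transcripts were 2077 to 2165 CPM in knockdown, 1925 to 2491 CPM in hypoxia and 976 to 1151 CPM in normoxia libraries, and the hour of collection of each group is not given.

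**Figure D5:**
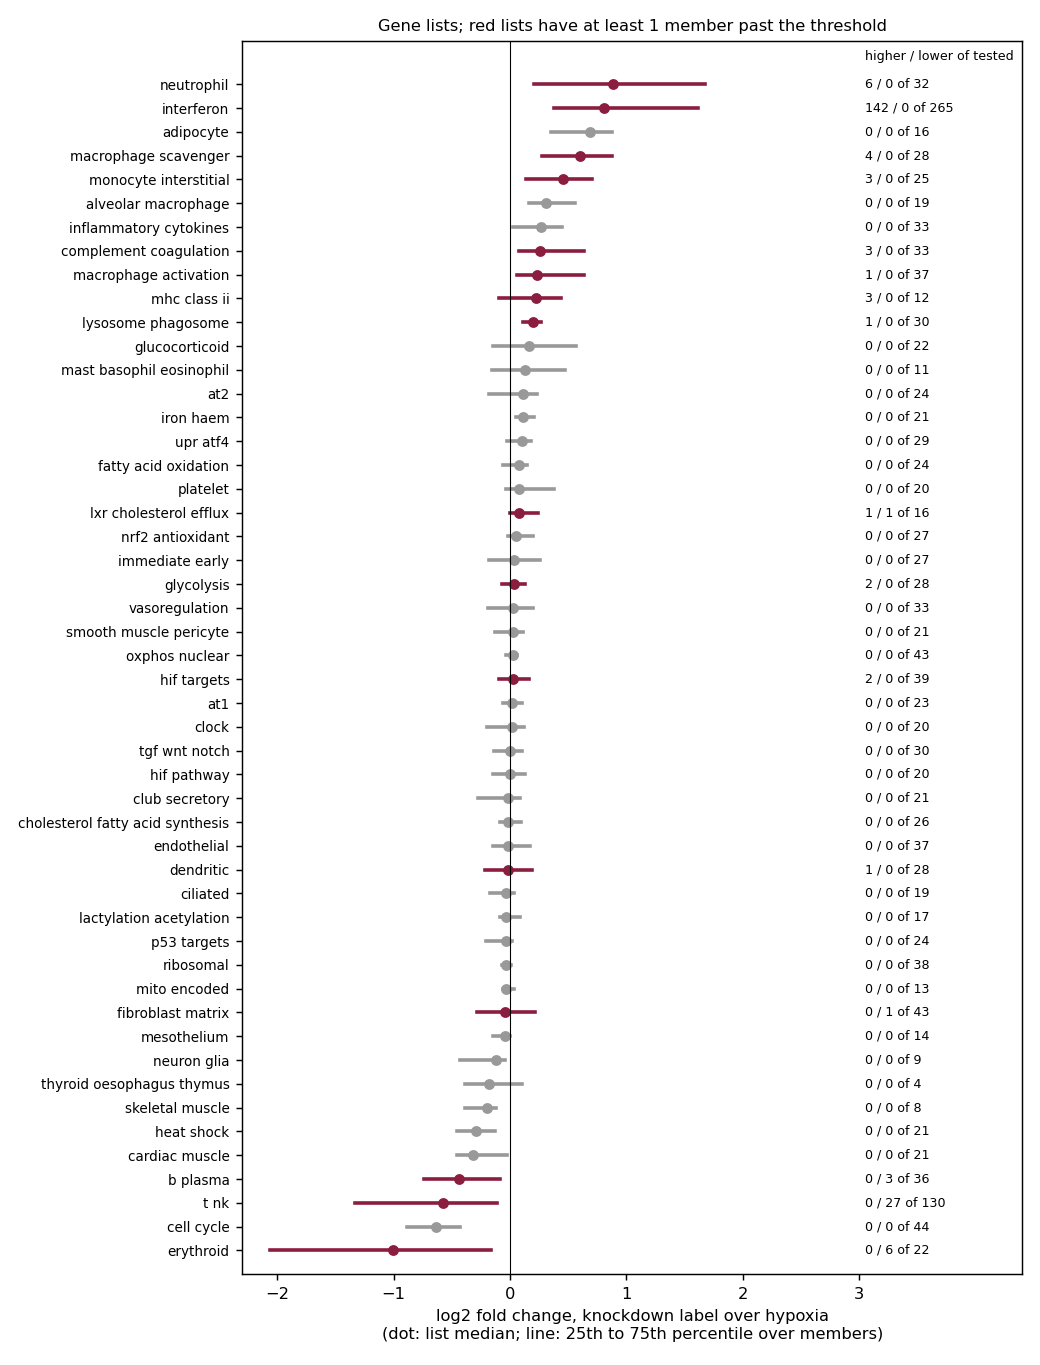
Median log2 fold change of the knockdown label over hypoxia (dot) with the 25th to 75th percentile over the tested members (line) for 50 gene lists, ordered by median, and the number of members that rose and fell of those tested at right; red marks lists with at least 1 called member. The HIF pathway and HIF target lists lie near 0, the neutrophil, interferon and macrophage lists above it, and the erythroid, T and NK cell and B cell lists below it.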

How the data were processed

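The authors deposited 1 table of raw read counts per gene for all 9 libraries, with no normalisation. The NEBNext Ultra RNA kit was used, per the labels' protocols. The submitters' processing notes name TopHat, HISAT2, StringTie, bcl2fastq, DESeq and limma, and mm10. How reads were counted and whether by strand is not given in the sources used here, so near-identical, overlapping and antisense genes are uncertain one by one.

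Columns were matched to samples by the codes in the titles. filterByExpr left 17578 of 30865 genes, which were scaled by TMM and fitted in edgeR 4.0.16 (R 4.3.3) over all 9 libraries with 1 coefficient per group. Knockdown minus hypoxia was tested by the quasi-likelihood F-test with Benjamini-Hochberg adjustment over all tested genes at 0.05. The floor of 3 counts covers counting error only. No library was a repeat of another of its group (chi-square per degree of freedom 12.9 to 25.7). Pairs across groups were not compared in this way. The model was first tested on simulated data. Positions are those of GENCODE M21 by gene identifier, since positions in the table differ from it.

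The comparison, the 51 gene lists (1694 entries, 1589 tested, none tested as a set) and the rule for named genes were chosen with earlier results of these data known. The rule took the HIF pathway list, the 14 largest rises and falls outside the interferon and T cell lists (mean of at least 1 CPM, no overlap, no predicted gene or receptor segment), up to 4 called or 2 uncalled members of each list, the 5 largest changes of the interferon and T cell lists, and tissue markers. Ccr1, Nampt, Tlr13, Fcgr3, Cd300lf, Pik3ip1, Mrgpra2b, Irx1, Srf, Sfpq, Rasgrp3, Nostrin, Vegfa, Ldha, Slc2a1, Pdk1, Ifit3, Gata1, Camp, Ltf, Ngp, H2-Ab1, H2-Aa, H2-Eb1 and Cd74 were added after their values were seen. Alternatives were DESeq2 size factors, the DESeq2 1.42.0 Wald test, limma-voom (limma 3.58.1), all genes kept, genes with 1 CPM or more in 3 libraries, the 6 libraries alone, the replicate number as a block and leaving out each library. Some genes that the rule took are not reported here.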

Additional observations from a re-analysis of the deposited data

How the results depend on the processing

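No called gene named above changed direction in an alternative that gave it a value (15 of the 16 for Mrgpra2b, which at least 1 CPM in 3 libraries left out), and Hif1a never passed (log2 fold change -0.17 to -0.10 when 1 library was left out, adjusted p = 0.60 to 0.80). Counts moved more. Genes higher numbered 222, with 362 by the DESeq2 Wald test, 376 without a low-count filter, and 159 to 242 when 1 library was left out. Genes lower numbered 79, with 205 by DESeq2, 40 by limma-voom, 268 without the filter, and 30 (without knockdown 1 or 3) to 243 (without hypoxia 2) when 1 library was left out. Outside both lists, 80 genes higher became 192 by DESeq2, 200 without the filter and 37 to 93 when 1 library was left out, and 52 genes lower became 163 by DESeq2, 31 by limma-voom, 214 without the filter and 18 to 193 when 1 library was left out. The cause of these shifts was not tested. Of 72 called genes that the rule took or that were added, 34 kept their call in all 9 fits with 1 library left out and 38 lost it in at least 1. Of the 72, limma-voom kept 56, the fit of the 6 libraries 55, and the replicate block 46. Among the genes named above, limma-voom did not call Ighg2c, Gzmk, Cd8a, Apol11b, Cdc20b, Acsbg1, Alas2, Igkc, Kcnn4, Rasal3, Il27ra, Gramd3, Arl4c and Slc16a3.

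With the replicate block, genes lower numbered 39, and outside both lists 38 were higher and 25 lower. Deviations of same-numbered knockdown and hypoxia libraries from their group means correlated at -0.083, -0.423 and -0.254, and knockdown 2 was closest to hypoxia 3 (0.439). These values cannot decide whether the numbers pair the samples, since tissue content such as cardiac muscle also varied by library. A shared batch of same-numbered samples was not tested.

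Depth limits scarce genes such as Majin, Mrgpra2b and Cdc20b, which had fewer than 60 reads in each knockdown and hypoxia library.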
